A study of Mus musculus with 18 samples.

Results

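Liver RNA of 3 arrays from CD1 mice fed a high-fat diet (HFD) and then injected with CMPF was compared with 3 arrays from mice on the same diet injected with vehicle, 6 of the 18 arrays of the series. The groups were taken from the sample titles. Mice of both groups ate a diet with 60% of its energy from fat for 6 weeks, and injections of vehicle or of CMPF at 6 mg/kg per day followed for 2 weeks before the liver was taken. This order of diet and drug is called the reversal model. Its chow-fed control group (3 arrays) is given beside the results for scale. In the prevention model of the series CMPF at the same dose was given for 1 week before 4 weeks of HFD. The mice are wild type and carry no transgene. The labels used here give neither age nor sex, do not say what the vehicle was, and do not state that each array stands for its own animal, so each p measures the spread between arrays, which may be technical.

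CMPF is a short furan dicarboxylic acid that circulates in blood and is formed from furan fatty acids of the diet, fish oil among its sources. A liver on HFD takes up and makes fatty acids, stores them as triglyceride in droplets, and burns or exports the rest. The nuclear receptor PPAR gamma, low in lean mouse liver, is known to drive uptake and storage genes such as Cd36 and Mogat1 in fatty liver. Liver genes also follow the daily clock, glucocorticoid hormone and the position of the cell along the lobule, so these groups were followed too.

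The values are log2 signals of Affymetrix arrays, on which a step of 1 is a doubling. Differences are CMPF minus vehicle with their standard error (SE) from limma. A gene passed when its Benjamini-Hochberg adjusted p over 13228 genes was under 0.05. The 7 hepatocyte markers that could be tested averaged 13.7 to 13.9 on each of the 6 arrays, so the labelled tissue showed its defining genes. The 3' minus 5' signal of the array controls for Gapdh and beta-actin, an index that is high in short RNA, was 1.55, 3.42 and 2.90 with vehicle and 2.68, 3.57 and 1.66 with CMPF. Its group means differed by 0.009 (exact two-sided permutation p = 1, n = 3 against 3, where the smallest possible p is 0.1). Vehicle 1 and CMPF 3 had the low values, and results are also given without them. Among the 9 arrays of the reversal model, chow 2 stood apart (median correlation 0.948 with the others, against 0.977 to 0.984).

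Of 13228 genes, 5 passed (0.0378%). The ectoenzyme gene Nt5e, the triglyceride synthesis gene Mogat1 and the cytochrome P450 gene Cyp2c38 fell with CMPF (3 genes, 0.0227%). The glucocorticoid-inducible co-chaperone gene Fkbp5 and the small GTPase gene Rhobtb1 rose (2 genes, 0.0151%). At an unadjusted p under 0.05 there were 253 genes higher (1.91%) and 381 lower (2.88%), together 634 (4.79%). Changes of at least 2-fold, without regard to p, numbered 38 higher (0.287%) and 44 lower (0.333%). The 3 arrays of one group lay entirely above those of the other for 501 genes higher with CMPF (3.79%) and 666 lower (5.03%), together 1167 (8.82%). Over all 13228 genes, without regard to p, 6280 were higher with CMPF and 6948 lower, with a median difference of -0.0093. These shares over all genes are the measure for the counts of list members given below. Some genes stand in several lists, so the counts of different lists are not separate results.

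**Figure D1:**
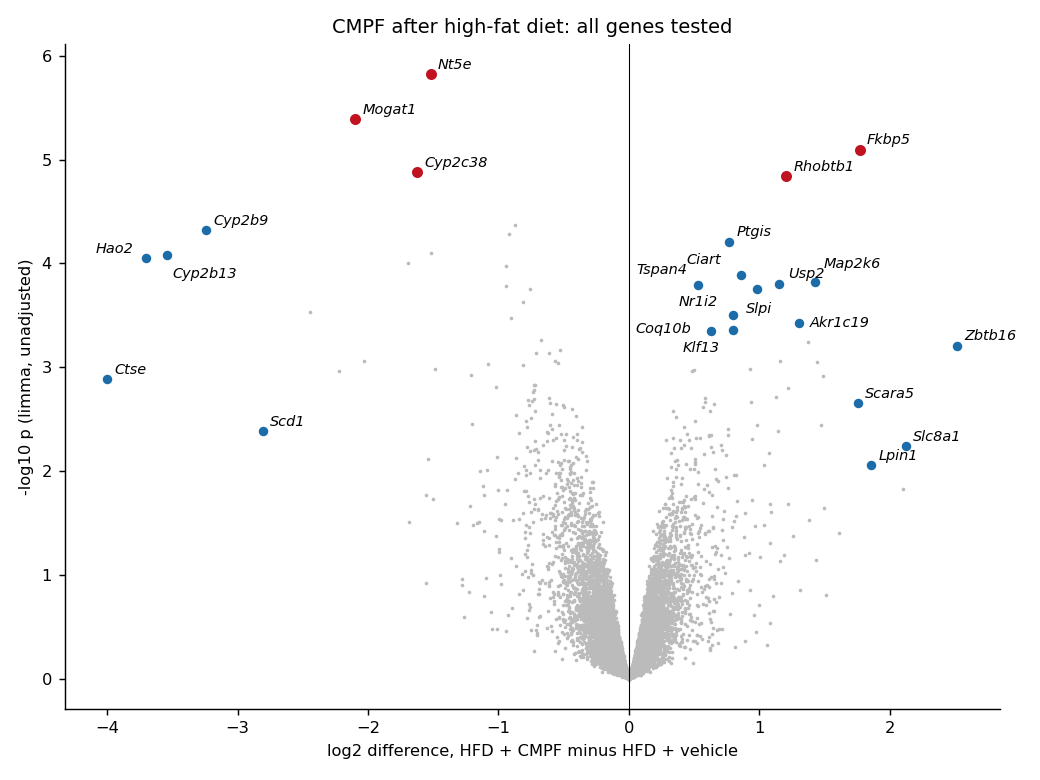
Each point is 1 of 13228 genes, with the log2 difference of CMPF minus vehicle after HFD on the x axis and the negative log10 of limma's unadjusted p on the y axis. Red points are the 5 genes that passed, and blue points are the other genes named for a small p or a large difference. Of the named genes, Ctse, Hao2, Cyp2b13 and Cyp2b9 lie farthest to the left, below the red points on the y axis.

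Nt5e encodes the cell surface nucleotidase that releases adenosine from AMP. Its log2 signal was 8.04, 7.87 and 8.47 with vehicle and 6.66, 6.24 and 6.92 with CMPF. All 3 CMPF arrays were below all 3 vehicle arrays and above the 3 chow arrays (5.87, 6.06 and 6.20). The difference was -1.52 ± 0.192 (SE, 2.87-fold lower, adjusted p = 0.0199 by limma). This value comes from the brighter of the probe sets for Nt5e. A second probe set above the filter gave -0.03 (unadjusted p = 0.827 by limma, n = 3 against 3), so the fall was seen by 1 of these probe sets and not by the other.

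Mogat1 encodes a monoacylglycerol acyltransferase, which makes diacylglycerol for triglyceride. It read 6.39, 6.41 and 7.34 with vehicle and 4.58, 4.44 and 4.83 with CMPF. The CMPF arrays lay just above the chow arrays, which read 4.41, 3.98 and 3.84. The difference was -2.10 ± 0.288 (SE, 4.28-fold lower, adjusted p = 0.0271).

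Cyp2c38 belongs to a P450 family that oxidises arachidonic acid in mouse liver. Its signal was 9.94, 10.21 and 10.77 with vehicle and 8.72, 8.42 and 8.91 with CMPF, and the chow arrays (8.05, 8.77 and 8.42) overlapped those of the CMPF group. The difference was -1.63 ± 0.249 (SE, 3.09-fold lower, adjusted p = 0.0381). Its close relative Cyp2c39 was at -1.52 ± 0.277 without passing (adjusted p = 0.0983). Whether the probe sets of these related genes bind each other's transcripts was not tested.

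Fkbp5 encodes a co-chaperone of the glucocorticoid receptor. The vehicle arrays read 7.69, 8.24 and 7.58 and the CMPF arrays 9.40, 9.43 and 9.996, with chow between 7.70 and 8.88. All 3 CMPF arrays were above all 6 others. The difference was 1.77 ± 0.259 (SE, 3.41-fold higher, adjusted p = 0.0354). A dimmer probe set of Fkbp5 gave 0.23 (unadjusted p = 0.236 by limma, n = 3 against 3).

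Rhobtb1 read 8.25, 7.53 and 8.39 with vehicle and 9.21, 9.18 and 9.41 with CMPF. The chow arrays were lowest, at 7.41, 7.38 and 7.22. The difference was 1.21 ± 0.186 (SE, 2.31-fold higher, adjusted p = 0.0381), and a dimmer probe set gave 0.96. The CMPF group therefore stood farther from chow than the vehicle group did for this gene, whereas for Nt5e, Mogat1 and Cyp2c38 it stood nearer.

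The 5 calls depended on single arrays, although the sign of each difference did not. Without vehicle 3, or without CMPF 2, none of the 5 passed by limma (670 and 457 genes had an unadjusted p under 0.05). None of the 5 passed without CMPF 1 either, and Nt5e was the 1 that did without CMPF 3. Without vehicle 1, Nt5e, Mogat1 and Cyp2c38 passed and Fkbp5 (adjusted p = 0.113) and Rhobtb1 (0.0601) did not. Without vehicle 2, Nt5e, Mogat1, Fkbp5 and Rhobtb1 passed and Cyp2c38 did not (0.104). Without vehicle 1 and CMPF 3 together, the arrays with a low index of short RNA, Nt5e passed at -1.72 (adjusted p = 0.0359). Mogat1 (-2.37, 0.0625), Cyp2c38 (-1.92, 0.0625), Fkbp5 (1.503, 0.29) and Rhobtb1 (1.23, 0.24) did not pass there. When all probe sets of a gene were averaged, Nt5e was at -0.77 and Fkbp5 at 1.00 and no gene passed (609 genes at an unadjusted p under 0.05 by limma). A fit on the 9 reversal arrays alone also gave 0 calls by limma (509 at an unadjusted p under 0.05), as did a fit on the 6 arrays compared (629).

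**Figure D2:**
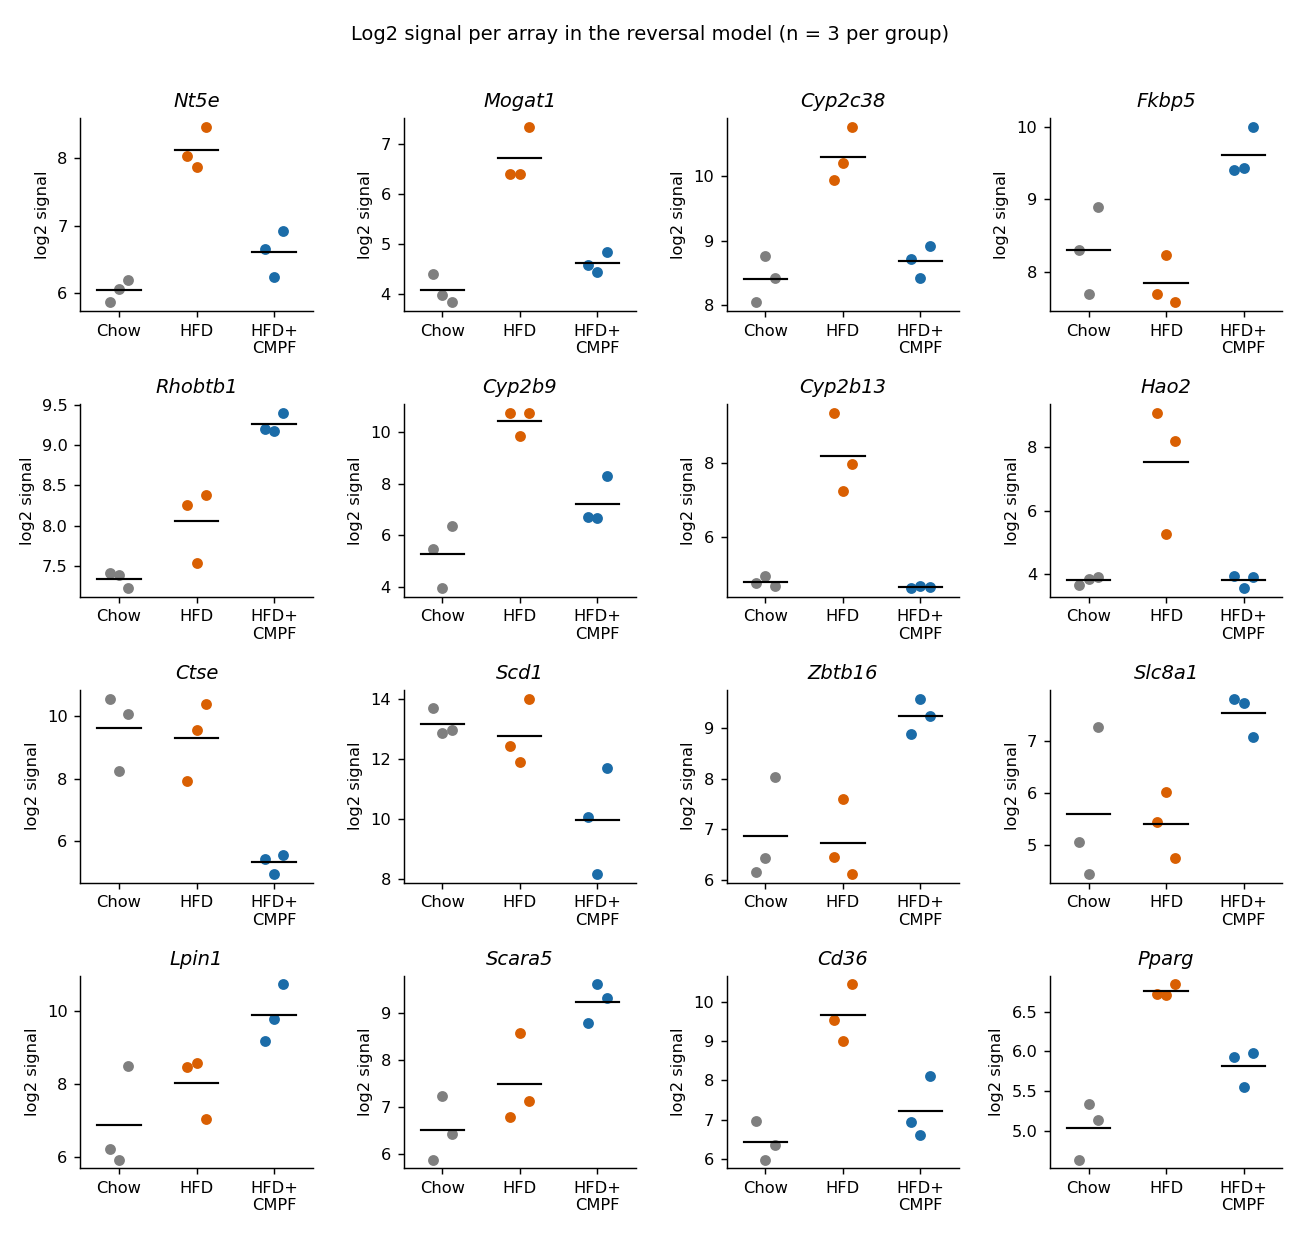
Log2 signal of 16 genes on each array of the reversal model, with chow in grey, HFD with vehicle in orange and HFD with CMPF in blue (n = 3 per group, bars are group means, each panel with its own y axis that does not start at 0). The CMPF arrays of Cyp2b13 sit at the level of the chow arrays, and those of Hao2 lie with chow under the filter on dim signals. Those of Fkbp5, Zbtb16, Rhobtb1, Lpin1 and Scara5 sit above both other groups, and those of Ctse and Scd1 below both.

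The largest differences downward were ranked among genes with an unadjusted p under 0.05 and no overlap between groups. They were those of Ctse, Hao2, Cyp2b13, Cyp2b9 and Scd1. None of these 5 passed after adjustment. The order is that of the measured values, and for Hao2 only a lower bound of the difference is given, as its CMPF arrays lay under the filter on dim signals. Cyp2b9 and Cyp2b13 are cytochromes P450 of xenobiotic and steroid metabolism whose expression is higher in female than in male mouse liver. Cyp2b9 was 10.76, 9.85 and 10.73 with vehicle and 6.69, 6.65 and 8.28 with CMPF, a difference of -3.24 ± 0.561 (SE, adjusted p = 0.0858). Cyp2b13 was 9.36, 7.25 and 7.97 with vehicle and 4.62, 4.68 and 4.66 with CMPF. The difference of Cyp2b13 was -3.54 ± 0.647 (SE, adjusted p = 0.0983), and its CMPF arrays lay at the level of the chow arrays (4.76, 4.94 and 4.68).

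The windows of 250 bases before the listed starts of these neighbouring genes are shown because both genes had large differences of one sign on these arrays. The sequences are those of RefSeq on GRCm38.p6, both from the plus strand of chromosome 7, at chr7:26173159-26173408 for Cyp2b9 and chr7:26061245-26061494 for Cyp2b13. Capitals mark AGGTCA, a core that many nuclear receptors bind.
Cyp2b9: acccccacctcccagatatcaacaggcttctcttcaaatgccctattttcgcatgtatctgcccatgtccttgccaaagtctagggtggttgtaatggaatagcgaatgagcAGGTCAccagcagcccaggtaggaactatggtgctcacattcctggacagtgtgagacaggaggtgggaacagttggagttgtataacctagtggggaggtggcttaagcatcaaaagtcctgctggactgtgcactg
Cyp2b13: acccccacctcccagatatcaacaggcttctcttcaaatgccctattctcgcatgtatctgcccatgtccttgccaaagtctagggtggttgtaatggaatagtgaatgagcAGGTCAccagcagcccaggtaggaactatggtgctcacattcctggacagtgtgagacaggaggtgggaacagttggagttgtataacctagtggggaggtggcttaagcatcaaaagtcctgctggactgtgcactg
The windows were identical at 248 of 250 positions (99.2%), and AGGTCA began 138 bases before the start in each. On either strand this core occurred in 14% of all 32851 windows of this length, so its presence is a description and not a site. The close likeness of the genes also means that their probe sets may not measure them separately, which was not tested.

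Hao2 encodes a peroxisomal oxidase of hydroxy acids. It read 9.07, 5.28 and 8.19 with vehicle and 3.94, 3.57 and 3.93 with CMPF, and 3.67, 3.85 and 3.93 in chow. All CMPF and chow arrays lay under the filter of 4.01, so the gene passed the filter, set on the mean of all 18 arrays, through other groups. With CMPF set to that level Hao2 was at least 11.4-fold lower than with vehicle (adjusted p = 0.0983 in the fit on the measured values), and vehicle 2 lay nearest to the CMPF arrays. Ctse, the aspartic protease cathepsin E, read 7.93, 9.57 and 10.38 with vehicle and 5.40, 4.93 and 5.55 with CMPF. In chow it was as high as with vehicle (10.57, 8.25 and 10.07). The difference of Ctse was -4.00 ± 0.999 (SE, adjusted p = 0.353), but a dimmer probe set gave -0.0047. Scd1, the stearoyl-CoA desaturase that makes monounsaturated fat, read 12.43, 11.90 and 14.02 with vehicle and 10.08, 8.17 and 11.69 with CMPF. Its difference was -2.81 ± 0.821 (SE, adjusted p = 0.569), and a dimmer probe set gave -1.53.

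Upward, where 2 genes passed, the genes of next smallest p had adjusted p from 0.0903 to 0.211 and groups that did not overlap. Ptgis, prostacyclin synthase, was at 0.77 ± 0.137, Map2k6, a kinase of the stress-activated cascade, at 1.43 ± 0.278, and Slpi, a secreted inhibitor of leukocyte proteases, at 0.98 ± 0.195. Nr1i2, the pregnane X receptor that senses drugs and bile acids, was at 0.79 ± 0.167, with 7.65, 7.64 and 7.76 with vehicle and 8.29, 8.53 and 8.62 with CMPF. Tspan4, a tetraspanin, was at 0.53 ± 0.104, Akr1c19, an aldo-keto reductase, at 1.30 ± 0.28, Klf13, a zinc finger transcription factor, at 0.80 ± 0.175, and Coq10b, a coenzyme Q binding protein, at 0.63 ± 0.138. The values of Klf13 were narrow within groups, at 8.70, 8.77 and 8.92 with vehicle and 9.59, 9.58 and 9.61 with CMPF. Usp2 and Ciart, which belong to the clock, complete these genes and are described with it.

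Ranked in the same way, with no overlap between groups as a condition, the largest upward values were those of Zbtb16, Slc8a1, Lpin1, Fkbp5 and Scara5. Slc8a1, a sodium-calcium exchanger, read 5.45, 6.02 and 4.76 with vehicle and 7.81, 7.73 and 7.06 with CMPF (2.13 ± 0.654, adjusted p = 0.598), though 1 chow array reached 7.27. Scara5, a scavenger receptor for ferritin, read 6.78, 8.57 and 7.12 against 8.79, 9.61 and 9.33 (1.75 ± 0.47, adjusted p = 0.446), and its dimmer probe set was at 0.20. Lpin1, a phosphatidate phosphatase and coactivator, read 8.48, 8.57 and 7.06 against 9.17, 9.79 and 10.73 (1.86 ± 0.61, adjusted p = 0.68). A single vehicle array lay apart from the other 2 of Scara5 and of Lpin1.

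Genes of fatty acid handling were then read by role. Pparg, the receptor described above, read 6.73, 6.71 and 6.84 with vehicle, 5.93, 5.55 and 5.98 with CMPF and 4.64, 5.34 and 5.14 in chow. Its CMPF arrays thus lay between the other groups without overlap, at -0.94 ± 0.176 (SE) from vehicle, without passing (adjusted p = 0.0992). Cd36, the fatty acid translocase, read 9.54, 8.99 and 10.44 with vehicle and 6.94, 6.60 and 8.10 with CMPF (-2.44 ± 0.511, adjusted p = 0.17). Its other 2 probe sets gave -2.73 and -2.48. Of 15 genes of fatty acid uptake and binding 0 passed by limma and 10 were lower (median -0.135). At an unadjusted p under 0.05, 2 were lower, against 2.88% of all genes. The 2 were Cd36 and Vldlr, which binds very low density lipoprotein (-1.17 ± 0.488). Dimmer probe sets of Vldlr above the filter gave -0.35 and -0.30. The intestinal and liver fatty acid binding proteins Fabp2 and Fabp1 were at -0.50 and -0.13, with overlapping groups.

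Of 13 genes of triglyceride synthesis, Mogat1 fell, where 0.0227% of all genes fell, and 12 did not pass (5 higher and 8 lower in all, median -0.035). The phosphatidate phosphatases Lpin1 and Lpin2 (0.76 ± 0.221) had positive values and no overlap, and Agpat2, an earlier acyltransferase of the pathway, was at -0.39 ± 0.135. Dgat2 and Gpam, the final and the first acyltransferase, were at 0.16 ± 0.114 and -0.0023 ± 0.147. Of 17 genes of lipid droplets and lipolysis 0 passed by limma and 0 had an unadjusted p under 0.05, and 14 were lower (median -0.156). The droplet coat proteins differed in sign, with Plin2 at -0.30 and Plin4 at -0.74 without overlap, and Plin5 at 0.66 with overlap. Cidec, which fuses droplets, was at -0.79 ± 0.439.

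Of 15 genes of de novo lipogenesis 0 passed by limma and 11 were lower (median -0.059). At an unadjusted p under 0.05 there were 3 genes, all lower, against 2.88% of all genes. The same 3 were lower without overlap, against 5.03% of all genes. They were Scd1 and the elongases Elovl5 (-0.81 ± 0.165) and Elovl6 (-0.78 ± 0.242). Dimmer probe sets of Elovl6 gave -0.69 and 0.07. The malic enzyme Me1 was at -0.49 ± 0.249. The enzymes that make palmitate were close to 0, with Acly at 0.02 ± 0.151, Acaca at -0.02 ± 0.137 and Fasn at -0.11 ± 0.262, as was their regulator Srebf1 at -0.06 ± 0.335. Acacb, the mitochondrial acetyl-CoA carboxylase, was at -0.19 ± 0.306. Of 12 lipogenic regulators 0 passed by limma, and Pparg was the 1 with an unadjusted p under 0.05, against 4.79% of all genes. Insig2, which holds back sterol-regulated transcription, was at -0.66 ± 0.308, the coactivator Ppargc1b at 0.48 and the repressor Nr0b2 at 0.25.

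Of 22 genes of polyunsaturated fatty acid metabolism, Cyp2c38 fell, 16 were lower in all and 5 were lower without overlap (median -0.074), where 0.0227% of all genes fell and 5.03% were lower without overlap. The median was -0.0061 without vehicle 3 and -0.15 without vehicle 1. Cyp2c39, Elovl5 and Cyp2c50, an epoxygenase (-0.30 ± 0.117), had the next smallest p. Of 18 genes of mitochondrial fatty acid oxidation 0 passed by limma and 0 had an unadjusted p under 0.05, with 14 lower (median -0.122, but -0.0088 without CMPF 2). Cpt1a, the carnitine palmitoyltransferase of the outer membrane, was at -0.02 ± 0.14 by its brightest probe set. Dimmer probe sets of Cpt1a above the filter gave -0.27 and -0.40 (unadjusted p = 0.0598 and 0.0021 by limma). Hadh, a dehydrogenase of the oxidation spiral, was at -0.18 with groups that did not overlap. The flavoprotein dehydrogenase Etfdh was at -0.34, the inner membrane transferase Cpt2 at -0.19 and the acyl-CoA dehydrogenase Acadm at -0.29. Of 23 peroxisomal and PPAR alpha target genes 0 passed by limma. At an unadjusted p under 0.05, 1 was higher and 4 lower, against 1.91% and 2.88% of all genes. Their median was -0.09, from -0.306 without vehicle 2 to 0.0231 without vehicle 3. Abcd2, a peroxisomal transporter of fatty acyl-CoA, was at -0.86 ± 0.24, Vnn1, a pantetheinase, at -0.81 ± 0.325, Acot2, a mitochondrial thioesterase, at -0.59 and Angptl4, an inhibitor of lipoprotein lipase, at 0.63 ± 0.257. A dimmer probe set of Acot2 gave -0.06. Ppara itself was at 0.23 ± 0.213.

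**Figure D3:**
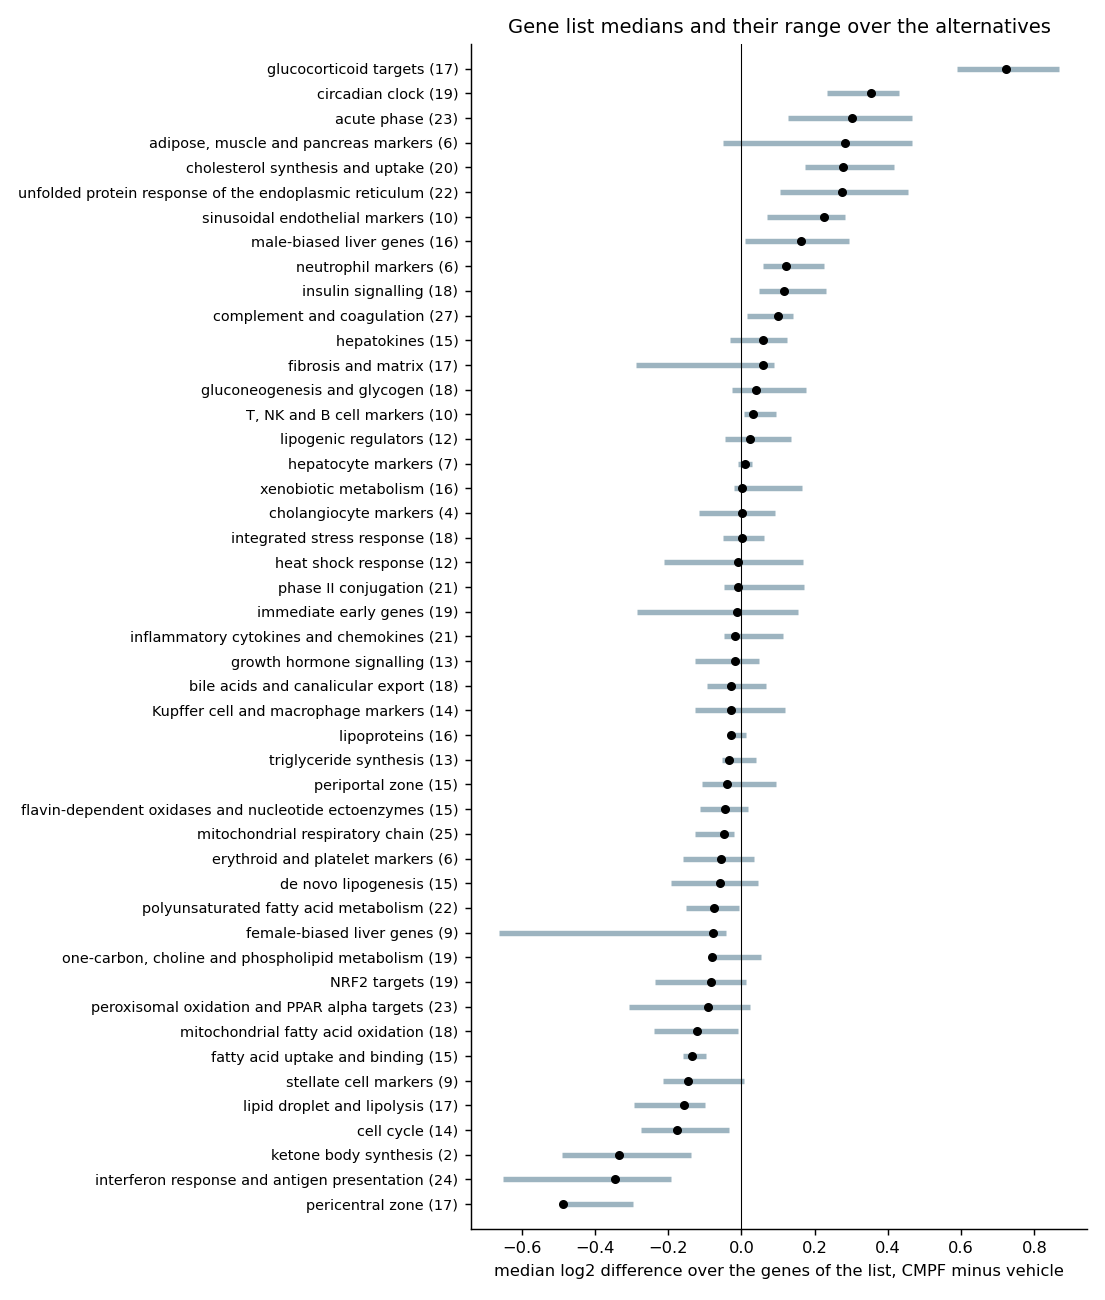
Median log2 difference (CMPF minus vehicle after HFD) over the genes of each of 47 lists, with the number of genes tested in brackets. Black points are the values reported and bars run from the lowest to the highest value over the 20 alternative settings. Glucocorticoid targets lie farthest right and pericentral genes farthest left, and many bars near 0 cross it. Leaving out 1 of the 6 arrays changed the sign of the median or moved it by over 1.5 times for 44 of the 47 lists, the exceptions being glucocorticoid targets, clock genes and fatty acid uptake and binding.

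Genes induced by glucocorticoids had the highest median of the 47 lists. Of 17 such genes Fkbp5 rose, where 0.0151% of all genes rose, and 16 did not pass. The list had 14 members higher and 3 lower, where 6280 of 13228 genes were higher (median 0.723, against -0.0093 over all genes). Without overlap 7 were higher, against 3.79% of all genes. With vehicle 1 and CMPF 3 left out the count was 14 higher and 3 lower and the median was 0.862. The median ranged from 0.587 to 0.868 over the alternative settings. Zbtb16, a zinc finger transcription factor, had the largest value, with 6.46, 7.60 and 6.12 with vehicle and 8.90, 9.59 and 9.24 with CMPF (2.52 ± 0.574, adjusted p = 0.266). Its other 2 probe sets gave 2.00 and 2.73, and chow 3 was also high, at 8.03. Pck1, the rate-limiting enzyme of gluconeogenesis, read 12.05, 11.27 and 10.89 with vehicle and 12.04, 12.24 and 12.77 with CMPF (0.95 ± 0.284, adjusted p = 0.569), with vehicle 1 inside the CMPF range. Per1, a clock repressor that glucocorticoids also induce, was at 1.04 ± 0.341, and the metallothioneins Mt2 and Mt1 were at 1.08 ± 0.503 and 0.92 ± 0.453. The receptor gene Nr3c1 was at -0.08 and Hsd11b1, which regenerates active hormone, at 0.03. These last 2 genes were picked after their values were seen.

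The window of 250 bases before the listed start of Fkbp5 and that of the clock gene Ciart are shown because each holds CACGTG, the E-box that clock activators bind, in capitals. The window of Cyp2c38 is shown as that of a gene that fell, with another motif. Its capitals mark ACANNNTGT, the core spacing of the glucocorticoid response element. All 3 are RefSeq sequence on GRCm38.p6 from the minus strand, at chr17:28486150-28486399 (Fkbp5), chr3:95882229-95882478 (Ciart) and chr19:39463076-39463325 (Cyp2c38).
Fkbp5: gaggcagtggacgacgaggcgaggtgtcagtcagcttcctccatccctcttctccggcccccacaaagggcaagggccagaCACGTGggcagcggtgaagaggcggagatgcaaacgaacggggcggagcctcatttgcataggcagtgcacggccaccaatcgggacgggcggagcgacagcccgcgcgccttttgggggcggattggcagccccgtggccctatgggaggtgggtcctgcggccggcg
Ciart: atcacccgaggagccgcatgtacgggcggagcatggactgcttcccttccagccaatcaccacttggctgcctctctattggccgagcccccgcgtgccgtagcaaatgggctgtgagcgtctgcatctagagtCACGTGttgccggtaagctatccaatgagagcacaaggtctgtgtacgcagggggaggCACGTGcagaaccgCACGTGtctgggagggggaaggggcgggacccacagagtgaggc
Cyp2c38: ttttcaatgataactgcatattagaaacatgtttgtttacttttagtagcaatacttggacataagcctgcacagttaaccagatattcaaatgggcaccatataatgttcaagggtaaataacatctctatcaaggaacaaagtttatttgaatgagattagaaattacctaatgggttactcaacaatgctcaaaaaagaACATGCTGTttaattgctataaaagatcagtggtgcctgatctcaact
CACGTG began 169 bases before the start of Fkbp5, and 116, 58 and 44 bases before that of Ciart. ACANNNTGT began 48 bases before the start of Cyp2c38. On either strand CACGTG occurred in 6.02% and ACANNNTGT in 5.84% of all 32851 windows. Of the 24 genes named so far for a small p or a large difference, 19 had a listed start. CACGTG was in a window of 6 of them, AGGTCA of 4 and ACANNNTGT of 1. A gene counted when any of its windows held the motif, whereas the shares are of single windows, so the units differ. In all 12 motifs were searched on both strands. The others were the D-box TTATGTAA and its variant TTATGCAA, the cAMP response element TGACGTCA with its core TGACG, the glucocorticoid receptor core AGAACA, the full glucocorticoid response element, the direct repeat of AGGTCA with 1 free base, its looser form, and the looser direct repeat with 4 free bases. TTATGTAA was in a window of 2 of the 19 genes, TGACG of 3, AGAACA of 3 and the rest of these, with the full glucocorticoid element, of 0. TTATGTAA occurred in 0.819%, TGACG in 17.8% and AGAACA in 16.1% of all windows. Some motifs overlap, since the full glucocorticoid element holds ACANNNTGT, the direct repeat holds AGGTCA and TGACGTCA holds TGACG.

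Of 19 circadian clock genes 0 passed by limma, 7 had an unadjusted p under 0.05, and all 7 were higher, against 1.91% of all genes. In all 15 were higher and 4 lower, where 6280 of 13228 genes were higher (median 0.355). Without overlap 6 were higher, against 3.79% of all genes. Without vehicle 1 and CMPF 3 the count was 17 higher and 2 lower. Ciart, a repressor of the clock, read 6.54, 5.99 and 6.63 with vehicle, 7.23, 7.07 and 7.44 with CMPF and 5.23, 5.38 and 5.44 in chow (0.86 ± 0.164, adjusted p = 0.112). Usp2, a ubiquitin protease with a strong daily rhythm, read 8.43, 8.34 and 9.16 against 9.73, 9.89 and 9.77, with chow between 7.53 and 7.97 (1.15 ± 0.225, adjusted p = 0.112). For both genes the 3 groups did not overlap and CMPF was farthest from chow. The nuclear receptors Nr1d2 (0.35 ± 0.115) and Rora (0.38 ± 0.125) had smaller values. The hour of tissue collection is not given in the labels, so its part in these values was not tested.

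**Figure D4:**
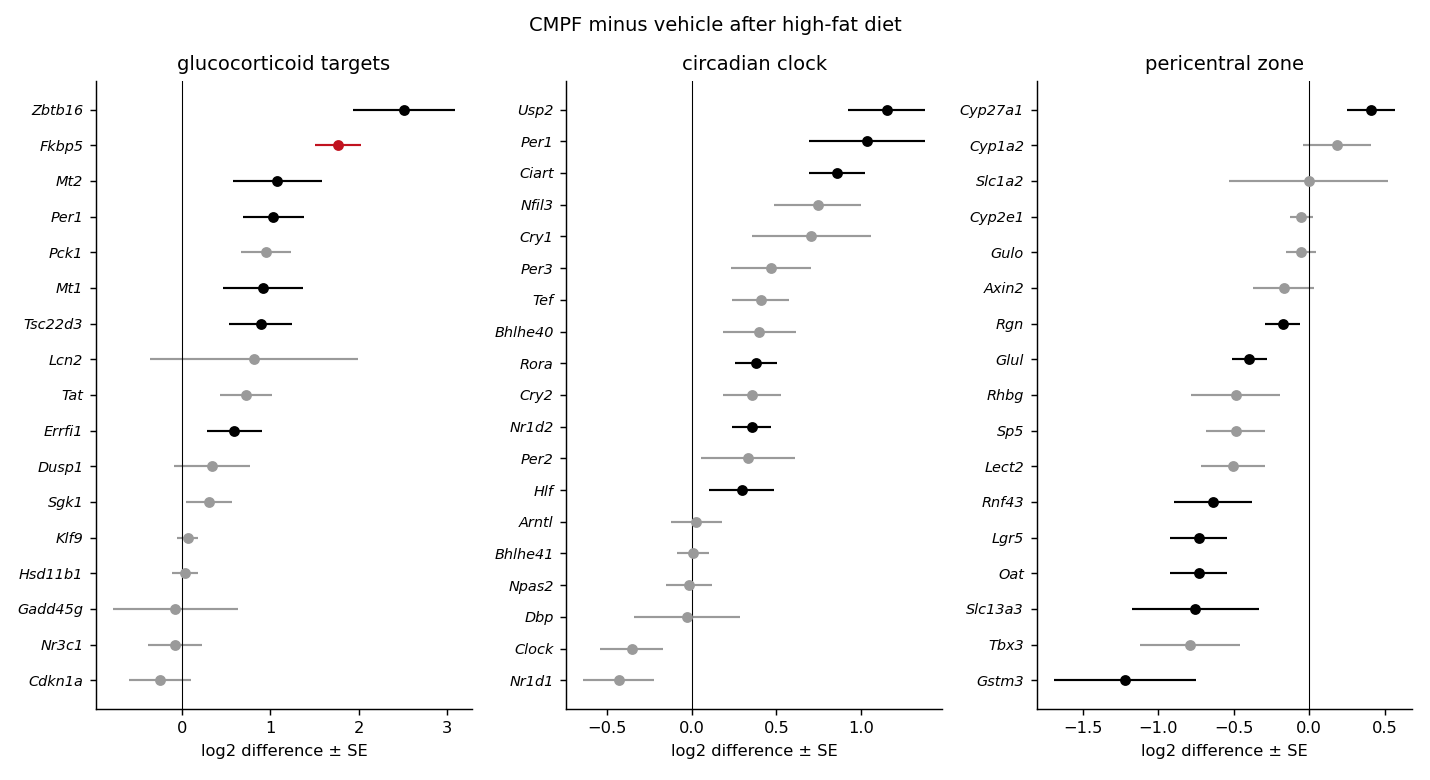
Log2 difference ± SE (x axis, CMPF minus vehicle after HFD, n = 3 against 3) of every tested gene of 3 lists. Fkbp5, in red, passed; black points are genes whose groups did not overlap, and grey points the rest. Of the genes shown 14 of 17 glucocorticoid targets and 15 of 19 clock genes lie right of 0, and 15 of 17 pericentral genes left of it.

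Pericentral genes, which hepatocytes near the central vein express under Wnt signals, had the lowest median of the 47 lists. They also did in 17 of the 20 alternatives, but several of these could not change a median. Fits on the reversal arrays, on the compared arrays or on all arrays as separate samples kept the same group means. So did the replicate block, the trend and robust prior and the omission of chow 2. Each of these gave -0.486 again by construction. The exceptions all came from leaving out a single array. Without vehicle 2 the female-biased genes were lowest (-0.662), without vehicle 3 the interferon response genes (-0.65) and without CMPF 3 the 2 ketone body synthesis genes (-0.49). Of 17 pericentral genes 0 passed by limma and 15 were lower, where 6948 of 13228 genes were lower (median -0.486). At an unadjusted p under 0.05, 8 were lower, against 2.88% of all genes. Without overlap 7 were lower, against 5.03% of all genes. With vehicle 1 and CMPF 3 left out 14 were lower. Over the alternative settings the median ran from -0.488 to -0.295, the latter without vehicle 3. Glul, glutamine synthetase, was at -0.40 ± 0.117, Oat, ornithine aminotransferase, at -0.73 ± 0.19, Lgr5, the R-spondin receptor, at -0.73 ± 0.188 and Gstm3, a glutathione transferase, at -1.22 ± 0.472. Dimmer probe sets gave -0.24 for Glul, -0.02 for Lgr5 and -0.34 for Gstm3. Cyp27a1, a sterol hydroxylase placed in this list, was higher at 0.41 ± 0.161. Of 15 periportal genes 0 passed by limma, and the median was -0.04. At an unadjusted p under 0.05, 2 were higher and 1 lower, against 1.91% and 2.88% of all genes. Pck1 and Asl, argininosuccinate lyase (0.40 ± 0.142), were the 2 higher, and Slc1a4, a neutral amino acid transporter, the lower (-0.72 ± 0.184). Hsd17b6, a steroid dehydrogenase, was at -0.53.

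Of 9 female-biased genes that could be tested 0 passed by limma and 7 were lower (median -0.077). Without overlap 3 were lower, Cyp2b9, Cyp2b13 and Hao2, against 5.03% of all genes. These are not 3 separate results, as the probe sets of Cyp2b9 and Cyp2b13 may not measure them separately. Hao2 lay under the filter with CMPF and passed the filter through other groups. A single array moved this median, to -0.662 without vehicle 2. Abcd2 was next by p, and Fmo2, a flavin monooxygenase named after its value was seen, was at 0.26. Of 16 male-biased genes 0 passed by limma and 10 were higher (median 0.163, but 0.0112 without vehicle 1). At an unadjusted p under 0.05, 2 were higher, against 1.91% of all genes. These were Gstp1, a glutathione transferase (0.28 ± 0.106), and the complement component C6 (0.65 ± 0.277). C8b, another complement component, was at 0.45, and Nudt7, a coenzyme A hydrolase, at -0.32.

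Of 16 genes of xenobiotic metabolism 0 passed by limma (median 0.0028). At an unadjusted p under 0.05, 3 were higher and 3 lower, against 1.91% and 2.88% of all genes. Cyp3a11, a drug-oxidising P450 and a known target of the receptor encoded by Nr1i2, was at -0.36 ± 0.131, opposite in sign to Nr1i2. Of 19 targets of the antioxidant regulator NRF2 0 passed by limma and 12 were lower, 4 of them without overlap, against 5.03% of all genes (median -0.083). The median was 0.0077 without vehicle 1, 0.0135 without vehicle 1 and CMPF 3 and -0.237 without vehicle 2. Those 4 were the glutathione transferases Gstm4 (-0.68 ± 0.152) and Gstm3, sulfiredoxin Srxn1 (-0.84 ± 0.247, with a dimmer probe set at 0.0101) and the quinone reductase Nqo1 (-0.66 ± 0.243). Of 21 phase II genes 0 passed by limma. Gstt1, a glutathione transferase (-0.72 ± 0.197), was the 1 lower at an unadjusted p under 0.05, against 2.88% of all genes. Gstp1, listed here too, was the 1 higher, against 1.91% of all genes. Among 15 flavin-dependent oxidases and nucleotide ectoenzymes, Nt5e fell, where 0.0227% of all genes fell, and 14 did not pass. Fmo5, a flavin monooxygenase, was at 0.44 ± 0.162.

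Of 18 genes of gluconeogenesis and glycogen 0 passed by limma (median 0.041). The 4 with an unadjusted p under 0.05 were all higher, against 1.91% of all genes. Besides Pck1 they were Foxo1, a transcription factor held back by insulin (0.81 ± 0.276), the glucose-6-phosphate transporter Slc37a4 (0.51 ± 0.192) and Tat, tyrosine aminotransferase (0.72 ± 0.297). Pck1 and Tat are also among the glucocorticoid targets, so this count is not separate from that list. G6pc, the glucose-6-phosphatase, was at 0.77 ± 0.39 with overlapping groups. Of 18 insulin signalling genes 0 passed by limma and 13 were higher (median 0.117), Igfbp1, a binding protein of insulin-like growth factors, being at 1.49 ± 0.583, Irs2 at 0.55 and the adiponectin receptor Adipor2 at -0.24. The groups of Igfbp1, Irs2 and Adipor2 overlapped, and CMPF 2 of Igfbp1 (11.22) lay far above CMPF 1 (8.87) and CMPF 3 (9.29). Of 15 hepatokines 0 passed by limma. At an unadjusted p under 0.05, 3 were higher and 1 lower, against 1.91% and 2.88% of all genes. Serpina12, vaspin, was at 1.09 ± 0.434, Hamp, hepcidin, at 1.26 ± 0.563, Lect2 at -0.51 and the fasting hormone Fgf21 at -0.45 ± 0.435. Each of these genes had overlapping groups. Vehicle 1 of Hamp (12.99) lay above its CMPF arrays (12.87, 12.74 and 12.61), and vehicle 3 was lowest (9.93). A dimmer probe set of Serpina12 gave 0.03.

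Of 20 genes of cholesterol synthesis and uptake 0 passed by limma and 0 had an unadjusted p under 0.05. Still, 19 had positive values, where 6280 of 13228 genes did (median 0.278, and 0.418 without vehicle 3). Lss and Fdft1, enzymes of the sterol branch, were at 0.44 and 0.42, Hsd17b7 at 0.34 and Mvd at 0.23. Likewise, in the unfolded protein response 21 of 22 genes were positive, with 0 passing and 0 at an unadjusted p under 0.05 by limma (median 0.274), among them Herpud1 (0.63), Ero1b (0.53), Sdf2l1 (0.71) and Creld2 (0.93). This median was 0.105 without vehicle 3 and 0.455 without vehicle 1 and CMPF 3. Of 18 genes of the integrated stress response 0 passed by limma, 9 were higher and 9 lower (median 0.0003). Asns, asparagine synthetase (0.53 ± 0.178), Chac1 (0.82) and Cebpb (0.58) were the 3 higher at an unadjusted p under 0.05, against 1.91% of all genes. Vldlr (-1.17), read with fatty acid uptake too, was the 1 lower, against 2.88% of all genes. Of 18 genes of bile acid synthesis and export 0 passed by limma. The sterol exporters Abcg5 (0.42 ± 0.171) and Abcg8 (0.47 ± 0.205) were higher without overlap and the phospholipid exporter Abcb4 lower (-0.44 ± 0.201).

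Of 24 interferon response and antigen presentation genes 0 passed by limma and 21 were lower, where 6948 of 13228 genes were lower (median -0.344). Without overlap 2 were lower, against 5.03% of all genes. The median was -0.65 without vehicle 3 and -0.192 without vehicle 1. H2-K1, a class I antigen, was at -0.80 ± 0.35, with other probe sets at 0.60, -0.59 and -0.85, the immunoproteasome subunit Psmb9 at -1.09 ± 0.635, the shared light chain B2m at -0.26 and Ifit2 at -0.65. Without vehicle 1 and CMPF 3 the count was 17 lower and 7 higher. Of 23 acute phase genes 0 passed by limma and 17 were higher (median 0.303, but 0.126 without vehicle 3), with Hamp and the metallothioneins having the smallest p and Itih4 at 0.35. Hamp was also read with the hepatokines, and the metallothioneins with the glucocorticoid targets. Of 21 cytokine and chemokine genes 0 passed by limma. Il1r1, a receptor of interleukin signals, was at 1.47 ± 0.421 without overlap, the chemokine Ccl9 at 0.81, the receptors Tnfrsf1a and Ccr2 at -0.25 and 0.23. A dimmer probe set of Ccr2 above the filter gave -0.54. Of 17 fibrosis and matrix genes 0 passed by limma, 9 were higher and 8 lower (median 0.058, but -0.15 without CMPF 2). The collagens Col1a1 (-0.47 ± 0.163), Col1a2 (-0.51 ± 0.225) and Col3a1 (-0.62 ± 0.332) had negative values.

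Markers of other liver cells were read beside these groups, as a bulk sample cannot tell fewer cells of a type from less RNA per cell. The mean log2 signal of 14 Kupffer cell and macrophage markers was 6.59 to 7.27 with vehicle and 6.44 to 7.07 with CMPF. That of 10 sinusoidal endothelial markers was 7.47 to 7.84 against 7.70 to 8.04, with 10 of 10 genes higher (median 0.226, but 0.0688 without CMPF 2). Only 1 of the 10 was higher without overlap, against 3.79% of all genes. Of 9 stellate cell markers 6 were lower (8.30 to 8.52 against 8.19 to 8.40), of 6 neutrophil markers 5 were higher (4.84 to 5.39 against 5.09 to 5.53) and of 4 cholangiocyte markers 2 were higher (6.19 to 6.24 against 6.25 to 6.38). Of 10 T, NK and B cell markers 7 were higher (4.87 to 5.17 against 4.85 to 4.88). Themis, a signalling protein of T cells, stood apart there at -1.49 ± 0.361 (adjusted p = 0.312), while Cd79b was at -0.30, Cd4 at 0.17 and Ms4a1 at 0.16, and Cd3g, Cd8b1, Ncr1 and Cd79a were under the filter on dim signals. The mean of 6 markers of adipose, muscle and pancreas was 5.24 to 5.47 with vehicle and 5.26, 5.27 and 6.34 with CMPF, the high value being that of CMPF 3, and Adipoq and Lep were under the filter. The part of these cells in the gene values was not tested.

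HFD against chow in the same model is set beside these values; it uses the same vehicle arrays, so the 2 comparisons are not independent and opposite signs can arise from the shared arrays. In it 324 genes passed (2.45%). HFD minus chow was 2.08 for Nt5e, 2.64 for Mogat1, 1.90 for Cyp2c38, 5.19 for Cyp2b9, 3.40 for Cyp2b13, 3.22 for Cd36 and 1.72 for Pparg. It was 0.72 for Rhobtb1, -0.46 for Fkbp5, -0.15 for Zbtb16, 0.97 for Usp2 and 1.04 for Ciart. For Ctse and Scd1, low with CMPF, it was -0.34 and -0.39.

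The last comparison asked whether CMPF after HFD differed from CMPF before it, which shares no array with the reversal model (prevention n = 2 against 3, with a near-identical pair of arrays averaged). Reversal and prevention also differ in weeks of injection (2 against 1) and of HFD (6 against 4). The mean log2 signal of an array was 5.25 to 5.26 in reversal and 5.08 to 5.1 in prevention. The order of diet and drug cannot be told apart from these. The test of the difference gave 0 of 13228 genes by limma and 1048 at an unadjusted p under 0.05 (7.92%). In prevention itself 0 genes passed for CMPF by limma. Of the 5 genes that passed after HFD, Nt5e was at -0.35 ± 0.214 in prevention, Mogat1 at -0.70 ± 0.323, Cyp2c38 at -0.47 ± 0.278, Fkbp5 at 0.05 ± 0.289 and Rhobtb1 at -0.16 ± 0.208. The difference between models was 1.36 ± 0.28 for Rhobtb1 and 1.72 ± 0.388 for Fkbp5 (adjusted p = 0.319 and 0.329), and -1.39 ± 0.433 for Mogat1, -1.16 ± 0.373 for Cyp2c38 and -1.17 ± 0.287 for Nt5e (adjusted p from 0.398 to 0.507). Scd1 had nearly the same value in both models, -2.81 ± 0.821 and -3.08 ± 0.918, as did Coq10b, at 0.63 ± 0.138 and 0.58 ± 0.155. Cyp2b9 (-1.31 ± 0.627) and Cyp2b13 (-2.14 ± 0.724) were lower in prevention too, without passing.

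The smallest p of the difference, with positive sign, belonged to Ptgis (1.06 ± 0.205), Rhobtb1, Tspan4 (0.73 ± 0.156), Tmem120a (1.00 ± 0.214) and Slpi (1.33 ± 0.292). Tmem120a, a membrane protein of the nuclear envelope, was at -1.03 ± 0.16 in prevention and at -0.03 ± 0.143 after HFD. With negative sign they were Sntb1 (-1.30 ± 0.207), Mreg (-1.33 ± 0.226), Slc16a1 (-1.55 ± 0.278), Cox15 (-0.81 ± 0.154) and Ccdc47 (-0.87 ± 0.168). Slc16a1, a lactate and ketone transporter, was at -0.73 ± 0.185 after HFD and 0.82 ± 0.207 in prevention. Mreg, a regulator of organelle transport, was at -0.76 ± 0.151 and 0.57 ± 0.169. The adjusted p of these 10 differences was 0.262 to 0.319. Across all genes the CMPF differences of the 2 models correlated at r = -0.018 (Spearman -0.141), a description across genes, which are not independent replicates.

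**Figure D5:**
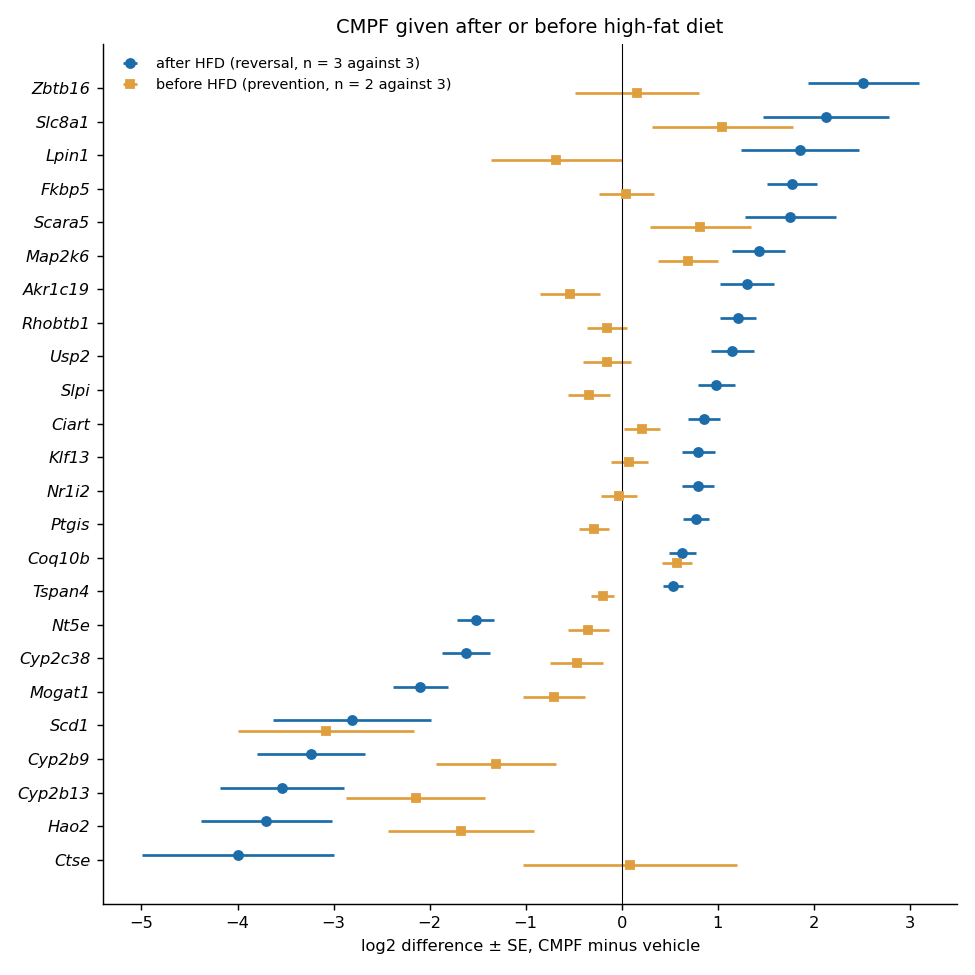
Log2 difference ± SE (x axis, CMPF minus vehicle) of 24 genes named for a small p or a large difference after HFD, with CMPF given after HFD in blue and before it in yellow. The blue values chose the genes. Scd1 and Coq10b have near-equal values in both models, while Fkbp5, Rhobtb1, Zbtb16, Klf13, Nr1i2, Usp2, Lpin1 and Ctse are within 1 SE of 0 in prevention.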

How the data were processed

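The authors deposited log2 values, made in Affymetrix Expression Console 1.1 by RMA per the submitters' processing notes, from 200 ng RNA per the labels. The deposited table held 45101 probe sets on 18 arrays, 3 in each of 6 groups. Of these, 34945 had 1 gene symbol, 932 several and 9160 none listed here; 34741 matched the gene table by gene ID. The dimmest 40% (mean log2 under 4.01) were dropped and each gene took its brightest remaining probe set, giving 13228 of 18193 genes.

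Groups were compared with limma 3.58.1 (R 4.3.3) in 1 model of 6 group means with Benjamini-Hochberg adjustment. Replicates 2 and 3 of prevention CMPF (0 genes over 2-fold apart, at least 115 in every other pair of arrays) were averaged, leaving 17 samples and 11 residual degrees of freedom. The pipeline was tested on simulated data. Arrays give no depth; their number limits the precision. Genes were named by p, size of difference or place in a list, predicted genes excluded. Those named by size were taken among genes with an unadjusted p under 0.05 and groups that did not overlap. The gene lists and naming rule were chosen with earlier results of these data known. Which lists are described by member was chosen after their values and the effect of the alternatives on them had been seen, and the choice left out genes whose sign changed between settings; the medians of all lists are plotted. Correlations of same-numbered arrays' deviations (-0.133, 0.393 and -0.161) did not show that numbers pair arrays. Alternatives changed the arrays fitted, block, filter, probe set rule, normalisation, prior, weights and RNA index.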

Additional observations from a re-analysis of the deposited data

How the results depend on the processing

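The count of 5 genes for CMPF after HFD was 7 with all 18 arrays counted as separate samples and 5 without the filter, with 60% of probe sets dropped and with a trend and robust prior. Fitting the 9 reversal arrays or the 6 compared gave 0 (509 and 629 at an unadjusted p under 0.05 by limma), averaging a gene's probe sets gave 0 (609), and the count was 3 with quantile normalisation and 3 with cyclic loess. It was 17 with the 3' to 5' index as a covariate, 3 without vehicle 1 and CMPF 3, and 8 without chow 2, a setting chosen after seeing the data. It ranged from 0 to 6 when each of the 6 arrays was left out. Limma's array weights gave 96 genes, and 45 for the difference between models, but their estimation stopped before convergence. The cause of these shifts was not tested. The difference between models had 0 genes under the other settings in which it could be fitted, except 1 gene without vehicle 1 and CMPF 3; it could not be fitted on the 9 or the 6 arrays. With the replicate block the count was 5, of which 2 were among the 5 reported (Nt5e and Mogat1), and the numbers are not shown to pair arrays.

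Of 2689 values of 135 named genes over the 20 alternatives, 30 changed sign, for 10 genes whose difference was close to 0 or overlapped. Alternatives that keep the group means of the compared arrays could not change a sign, so their values among the 2689 test nothing here. With all probe sets averaged Gpam was at 0.0579, Acly at -0.0338 and Ccr2 at -0.16. Quantile normalisation gave 0.0098 for Tmem120a, 0.0106 for Cpt1a and 0.0075 for Gpam, and cyclic loess 0.0071 for Acaca, 0.0055 for Cpt1a and 0.0236 for Gpam. Array weights gave 0.0318 for Tmem120a, 0.0266 for Srebf1 and -0.14 for Nr0b2. When single arrays were left out, Gpam ranged from -0.0893 to 0.12, Cpt1a from -0.113 to 0.0549, Acly from -0.0705 to 0.15 and Nr0b2 from -0.0523 to 0.47. Tmem120a ranged from -0.16 to 0.15, Srebf1 from -0.36 to 0.30, Acaca from -0.12 to 0.0574, Fasn from -0.27 to 0.14 and Acacb from -0.506 to 0.0623. These counts cover the genes the text names, and the lists described by member were chosen after such sign changes had been seen. A further 48 values lost their call and 44 gained one, 30 of the latter with array weights. Of 940 list medians 21 moved by more than the spread between arrays. The 940 include the medians of alternatives that keep the group means, which could not move.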
